A study of Mus musculus with 12 samples.

Results

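The response of mouse pancreatic islets to pro-inflammatory cytokines was described here in the continuous presence of ML351, an inhibitor of 12/15-lipoxygenase, the enzyme that oxygenates arachidonic acid and other polyunsaturated fatty acids. The members were chosen by treatment: the 3 libraries of islets given cytokines plus ML351 (called the combination) were compared with the 3 libraries of islets given ML351 alone, over all 14089 genes in the table. These are 6 of the 12 RNA sequencing libraries of the series. The islets came from C57BL/6J mice and were cultured for 24 hours. ML351 was at 10 µM in both groups, and the combination added IL-1β at 5 ng/ml, TNF-α at 10 ng/ml and IFN-γ at 100 ng/ml. The other 6 libraries, 3 with vehicle and 3 with the same cytokines and no ML351, were used to ask whether the response differed when the inhibitor was absent. How many animals were pooled, and whether replicates were separate cultures, is not in the labels, so p-values measure the spread between these libraries, which may be technical.

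The 3 cytokines signal through different receptors. IL-1β and TNF-α act through the adaptors MYD88 and TRADD to free NF-κB from its IκB inhibitors, while IFN-γ acts through JAK1 and JAK2 to phosphorylate STAT proteins, which bind GAS elements and induce the transcription factor IRF1. In β cells the combination of these signals is known to induce inducible nitric oxide synthase, chemokines and antigen presentation, to activate the integrated stress response, and to lower the transcription factors and glucose sensing genes that define the mature cell. Lipid products of 12/15-lipoxygenase are studied as mediators of oxidative stress in this setting.

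The ML351 libraries held 21780484, 27193026 and 24069415 counts and the combination libraries (replicates 1, 2 and 4) held 20732505, 21855322 and 20208286. Values below are CPM, the counts of a gene scaled to a common library total with TMM factors, and replicates are listed in the order 1, 2, 3 for ML351 and 1, 2, 4 for the combination. A number after a gene in parentheses, or after "by", is the log2 fold change between the combination and ML351, followed by its standard error (SE) where given. The islet label was met by the data: Ins1 and Ins2 together took 27.5% to 31.0% of the counts with ML351 and 24.0% to 27.8% with the combination. A pair of libraries stood apart in groups of genes. ML351 replicate 1 was far above replicates 2 and 3 for Duox2 (28.5, 0.656 and 0.197 CPM), Duoxa2 (13.9, 0.182 and 0.0394), Krt19 (40.9, 3.28 and 3.23) and Gsta4 (31.3, 3.61 and 2.91), and combination replicate 2 was far above replicates 1 and 4 for the fibroblast collagen Col1a1 (1.03, 36.8 and 1.24) and for Pdgfra (0.4398, 7.595 and 0.415). None of these 6 genes passed edgeR's test between the groups with all libraries, while limma-voom called Duox2, Duoxa2, Krt19 and Gsta4. Without ML351 replicate 1 the log2 fold change between the groups was 6.73 for Duox2, 8.30 for Duoxa2, 4.36 for Krt19 and 3.82 for Gsta4, and each passed. Without combination replicate 2 that of Col1a1 was -5.08 and passed, and that of Pdgfra was -0.88 and did not, whereas Pdgfra passed without combination replicates 1 or 4. In bulk tissue, fewer cells of a type and less RNA per cell cannot be told apart.

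Cytokines changed most of the measured transcriptome in the presence of ML351. Of 14089 genes, 10079 (71.5%) passed the edgeR quasi-likelihood test at an adjusted p of 0.05, 4954 higher (35.2%) and 5125 lower (36.4%), and the values of the 2 groups did not overlap for 10424 genes (74.0%). The changes were also large. Among called genes 860 were over 4-fold higher (6.10% of those tested) and 853 over 4-fold lower (6.05%), and 161 were over 32-fold higher against 58 over 32-fold lower. A call alone therefore marks a gene as one of the majority, and the sizes below carry the description. Across all genes the median log2 fold change was -0.02, which is the reference for each gene list named below.

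**Figure D1:**
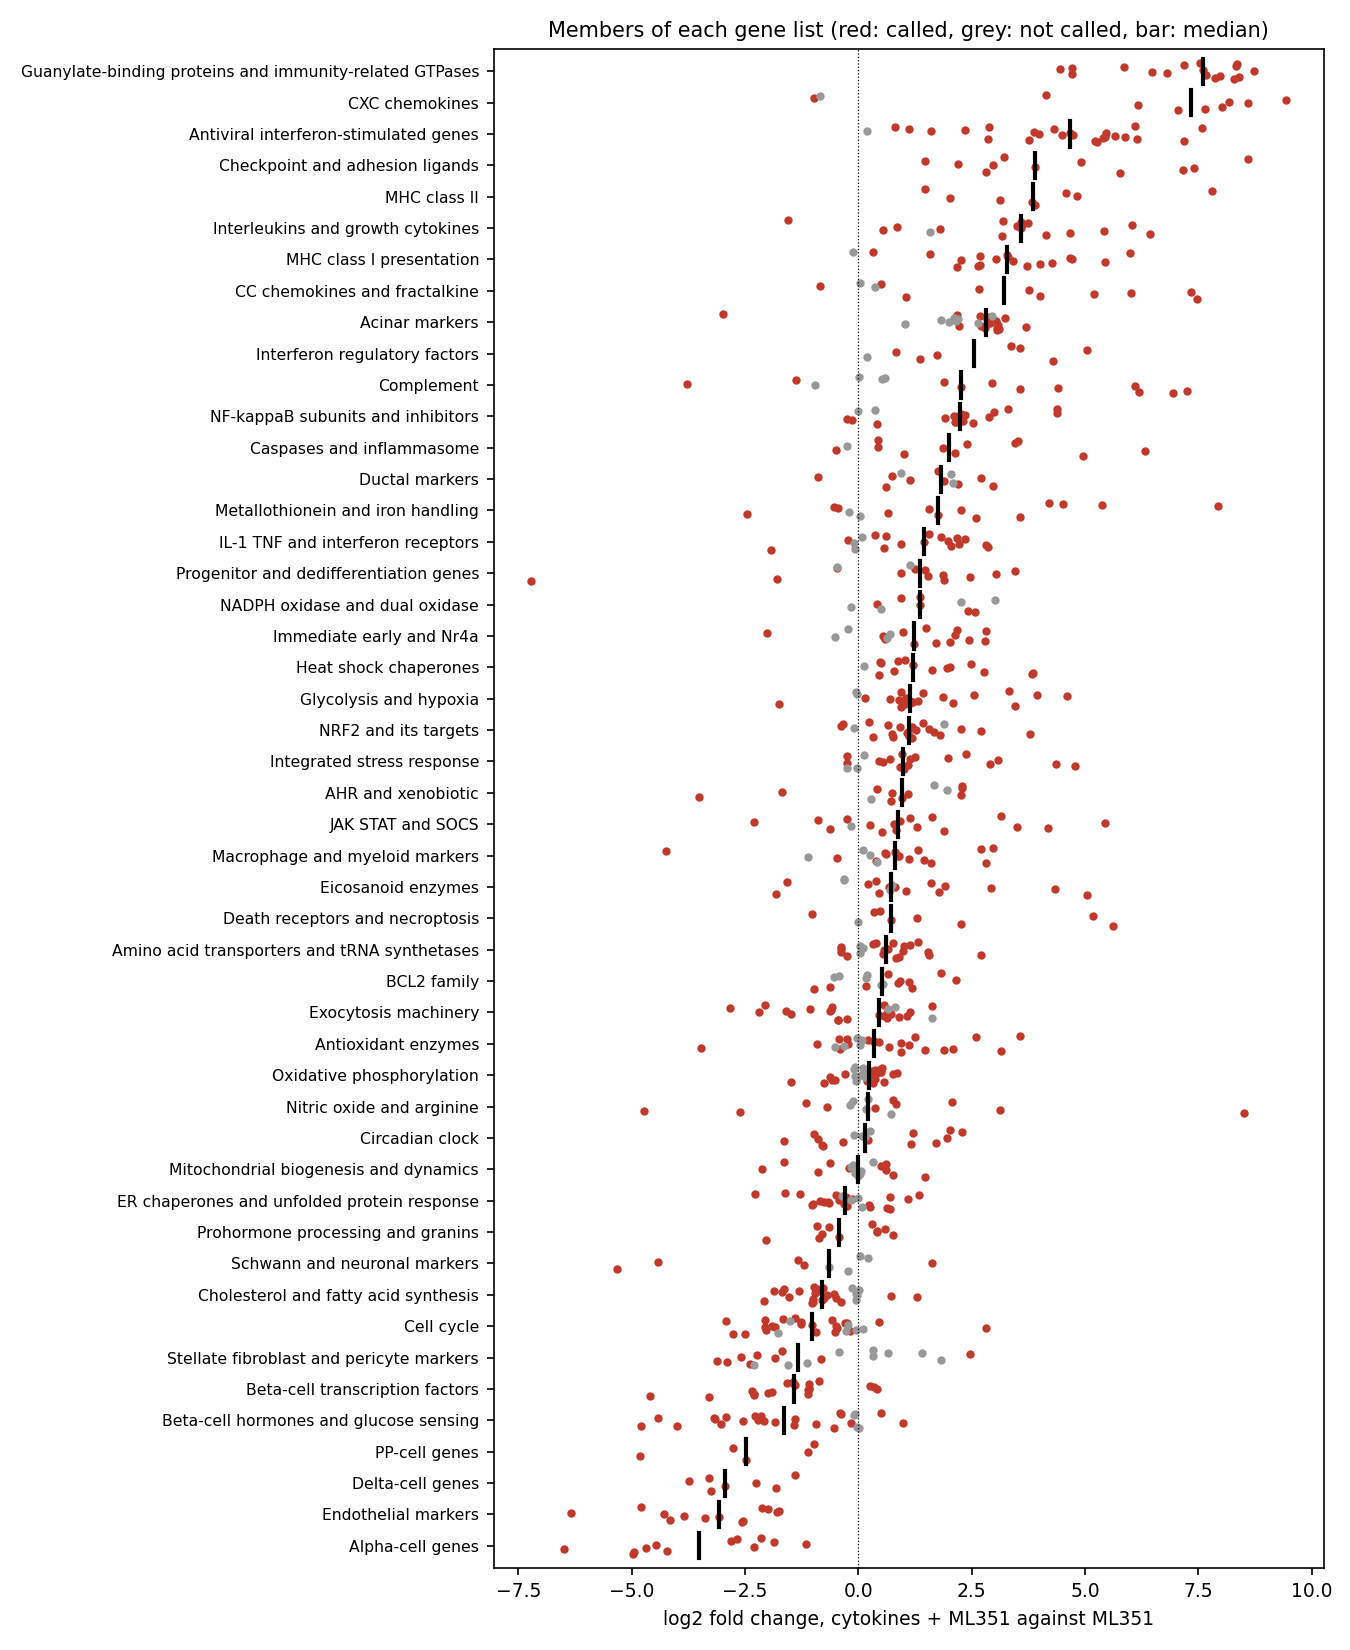
Log2 fold change between the combination and ML351 (horizontal axis) for the tested members of each gene list with 5 or more of them (1 row per list); red points were called, grey points were not, and the black bar is the list's median. The guanylate-binding protein list lies furthest to the right, with a median of 7.60, and the alpha-cell list furthest to the left, with a median of -3.52.

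Receptors for the added cytokines moved in both directions. Il1r1, which encodes the signalling receptor for IL-1, fell from 617, 694 and 654 CPM with ML351 to 188, 175 and 153 CPM with the combination (log2 fold change -1.93, SE 0.07, edgeR adjusted p = 1.1e-13), and no library of one group reached the other. Il1rn, the secreted antagonist of that receptor, was at 16.5, 2.15 and 4.53 CPM and then 43.9, 76.8 and 43.95 CPM (2.85, SE 0.66), with ML351 replicate 1 the highest of its group but still below every combination library. The TNF receptor genes rose, Tnfrsf1a from 46.5, 46.9 and 52.5 to 210.2, 210.1 and 184 CPM (2.05) and Tnfrsf1b by 2.81. Both chains of the IFN-γ receptor rose, Ifngr2 (2.22, SE 0.08) more than Ifngr1 (0.94, SE 0.09), as did the adaptor Myd88 (1.99) and the kinase Irak2 (2.36). Over the list of IL-1, TNF and interferon receptors with their adaptors, 14 of 19 genes rose, 2 fell and 3 did not pass the test.

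Irf1, a transcription factor gene induced by IFN-γ, stood at 54.3, 51.8 and 58.7 CPM in the ML351 libraries and at 1146, 1107 and 971 CPM in the combination libraries. The 3 values of each group lay close together and far from the other group (log2 fold change 4.29, SE 0.08, edgeR adjusted p = 1.3e-17; chromosome 11, 53770014 to 53778374, GRCm38). Stat2 (3.49) and Irf9 (3.37), which belong to the complex that binds interferon-stimulated response elements, and Irf7 (5.04) and Irf8 (3.56) rose too, so that 7 of 8 interferon regulatory factors were called higher, while Irf3 was at 0.19 (adjusted p = 0.2). Stat5a (-0.16, adjusted p = 0.23) was the one member of 18 in the JAK, STAT and SOCS list that did not pass.

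The feedback inhibitors of these pathways did not move as a block. Socs1, which blocks JAK kinases after interferon, rose from 0.8497, 0.765 and 1.06 to 37.2, 44.3 and 34.9 CPM (5.44, SE 0.19), and the ISG15 protease gene Usp18 rose by 3.15 (SE 0.07). Socs3 rose by 0.92 (SE 0.17), whereas the STAT5-responsive inhibitors Socs2 and Cish fell, Socs2 from 19.9, 23.2 and 22.1 to 3.62, 5.92 and 3.52 CPM (-2.31, SE 0.15) and Cish by 0.90 on the log2 scale (SE 0.13). On the NF-κB side, 15 of 19 subunits and regulators rose and 2 fell (Ikbkb and Chuk, which encode IκB kinase subunits, at -0.24 and -0.15), with a median of 2.23. The call of Chuk was lost in 4 of 22 alternatives, among them without ML351 replicate 2 and without combination replicates 2 or 4. Nfkbia, encoding the inhibitor IκBα, rose from 46.8, 41.2 and 39.6 to 315, 316 and 308 CPM (2.88, SE 0.08), Tnip1 by 2.98 and Birc3 by 3.30. Tnfaip3, the ubiquitin-editing enzyme A20, rose from 7.99, 3.75 and 4.57 to 119.7, 118 and 97.8 CPM (4.38, SE 0.26), a larger change than that of the subunits Rela (2.14), Relb (2.15) and Nfkb1 (0.40, SE 0.10).

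Genes of interferon defence were among those with the largest rises. The guanylate-binding proteins (GBP) and immunity-related GTPases (IRG) attack vacuoles that hold intracellular pathogens, and all 17 tested members rose, by 4.44 (Irgm1) to 8.73 (Gbp10) on the log2 scale. Gbp2 stood at 8.07, 5.65 and 7.402 CPM with ML351 and at 2184, 2128 and 2263 CPM with the combination (log2 fold change 8.29, SE 0.11, edgeR adjusted p = 4.2e-19; chromosome 3, 142620602 to 142638008). Gbp4 (8.40), Iigp1 (8.33), Tgtp1 (8.34) and Igtp (5.87) behaved alike, with no overlap of the groups for any of the 17. Near-identical copies exist among Gbp, Irg and Tgtp genes, and how the counting split reads between them is not given in the sources used here, so single values in these families are uncertain. Of 25 antiviral interferon-stimulated genes, 24 rose, with a median of 4.67. They included Zbp1, a sensor of viral nucleic acid (7.57), Isg15 (1.53, 0.729 and 1.102 to 78.05, 78.4 and 78.2 CPM, 6.14), Xaf1 (6.10), Rsad2 (5.46) and Oasl2 (4.67). Eif2ak2, the double-stranded RNA kinase that can phosphorylate eIF2α, was the exception at 0.18 (adjusted p = 0.27).

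Antigen presentation genes rose in both classes. Class I molecules display cytosolic peptides on all nucleated cells, and 18 of 19 genes of that pathway were called higher (median 3.28). The exception, Pdia3, was at -0.13 (edgeR adjusted p = 0.078). It was called lower in 5 of 22 alternatives, among them upper quartile scaling, library totals alone, limma-voom and the fit without combination replicate 4. Psmb8, an inducible subunit of the immunoproteasome, went from 32.5, 32.4 and 35.1 to 857, 853 and 900.2 CPM (4.71, SE 0.06, adjusted p = 4.2e-19 by edgeR), and the peptide transporter Tap1 from 15.6, 12.9 and 11.6 to 604, 609 and 533 CPM (5.45, SE 0.10). In both genes each combination library exceeded each ML351 library many times over. The light chain B2m rose by 4.26, Tap2 by 3.40, Tapbpl by 3.03 and the transactivator Nlrc5 by 5.99, and the heavy chains H2-K1 and H2-D1, whose sequences resemble other H2 genes, by 2.18 and 2.64. All 8 class II genes, which present peptides to helper T cells and belong mostly to professional antigen presenting cells, rose as well (median 3.86). Cd74, the invariant chain, went from 26.1, 27.6 and 24.5 to 593, 759 and 508 CPM (4.57, SE 0.13) and H2-Aa from 4.04, 3.32 and 4.21 to 58.01, 68.5 and 44.9 CPM (3.89, SE 0.15). Ciita, the class II transactivator, had 3 counts in the ML351 libraries together against 626 in the combination, so that its ML351 level was 0.392% of the combination level (0.0805% to 1.15%, exact 95% interval for counting error only).

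Macrophage markers moved beside the class II genes. Their summed level was 185 to 208 CPM with ML351 and 354 to 382 CPM with the combination, and 13 of 19 were called higher and 2 lower. The members did not move one way: Cd68 rose from 16.1, 12.5 and 10.9 to 91.6, 92.3 and 93.8 CPM (2.82) and Mpeg1 by 2.96, C1qa rose by 0.38 (SE 0.08), Csf1r was at 0.42 (adjusted p = 0.061, but called without ML351 replicate 1, combination replicate 1 or vehicle replicates 2 or 4), Lyz2 fell by 0.47 on the log2 scale and the fractalkine receptor Cx3cr1 fell from 1.997, 1.82 and 1.06 to 0.0977, 0.0883 and 0.0518 CPM (-4.25). The part of resident macrophages in the class II and chemokine values was not tested.

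Chemokines, which recruit leukocytes, held several of the largest values. Cxcl10, the ligand of CXCR3 on T cells, stood at 4.59, 4.26 and 3.43 CPM with ML351 and at 1326, 1245 and 949 CPM with the combination (8.16, SE 0.22, edgeR adjusted p = 1.2e-10; chromosome 5, 92346638 to 92348889). The other CXCR3 ligands followed, Cxcl9 from 0.765, 0.984 and 0.906 to 313, 353 and 363 CPM (8.58) and Cxcl11 from 0.1699, 0.0364 and 0.0394 to 60.9, 51.2 and 61.9 CPM (9.43, on 6 counts in the ML351 libraries). GENCODE annotates Cxcl11 as a polymorphic pseudogene in this strain's reference. In none of the 3 did the groups overlap. The neutrophil attractants Cxcl1 (7.05), Cxcl2 (7.63) and Cxcl3 (8.01) rose too, so that 8 of 10 CXC genes were higher with a median of 7.34, while Cxcl12, a homeostatic chemokine, fell from 2.85, 2.405 and 3.19 to 0.831, 1.94 and 1.503 CPM (-0.97, SE 0.30). Among CC chemokines, Ccl2 went from 3.57, 2.99 and 5.16 to 624, 628 and 816 CPM (7.47, SE 0.18) and Ccl5 rose by 4.00. In that list 9 of 12 were called higher, and 5 when only genes with at least 1 CPM in 3 libraries, or only the 6 libraries compared, were used. The fractalkine gene Cx3cl1 was at 0.04 (adjusted p = 0.88).

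Cytokine transcripts of the islet itself rose in 15 of 17 cases (median 3.59). Il6 went from 0.552, 0.5101 and 0.787 to 55.5, 50.1 and 55.1 CPM (6.43, SE 0.24), Il1b from 1.27, 0.838 and 2.205 to 27.2, 20.5 and 27.9 CPM (4.13, SE 0.24), and the macrophage growth factor Csf1 from 18.6, 19.2 and 22.4 to 217, 239.7 and 229 CPM (3.51, SE 0.11). Tnf, whose protein was in the medium, rose by 3.74 (SE 0.49), and the death ligand Tnfsf10 by 3.59. Ebi3 was the member that fell (-1.55, SE 0.42). Other cytokine genes outside that list, picked after their values were seen, were close to absent with ML351 alone. Il21 had 0 counts in the 3 ML351 libraries and 290 in the combination. With 3 counts over the group set as the floor, the rise was 118-fold. The exact 95% interval of the Il21 level with ML351 reached up to 1.05% of the combination level. Il27 had 1 count against 497, an ML351 level of 0.164% of the combination level (0.00415% to 0.920%, exact 95% interval), and the type III interferon genes Ifnl2 (2 against 689 counts) and Ifnl3 (3 against 968), which are near copies of each other, were at 0.237% (0.0287% to 0.860%) and 0.253% (0.0521% to 0.742%). Among all tested genes, 28 had at most 3 counts in the ML351 libraries and at least 100 in the combination, and 16 showed the reverse.

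The list of immune checkpoint and adhesion ligands, which also holds the enzyme gene Ido1, rose in all 11 tested cases (median 3.89). Cd274, which encodes the inhibitory ligand PD-L1, stood at 19.3, 20.4 and 17.95 CPM with ML351 and at 1073, 1043 and 1038 CPM with the combination (5.77, SE 0.08, adjusted p = 4.2e-19 by edgeR; chromosome 19, 29367455 to 29388095). The values within each group differed by little. Icam1, an adhesion ligand for leukocytes, rose from 5.01, 3.72 and 5.87 to 752, 802 and 889.6 CPM (7.39, SE 0.13) and the costimulatory receptor Cd40 by 7.16 (SE 0.15). Ido1, the tryptophan-degrading enzyme, had 2 counts with ML351 and 782 with the combination, 0.209% of the combination level (0.0253% to 0.757%). Vcam1 was uneven, at 16.7, 65.2 and 19.02 CPM in the combination against 1.87, 1.49 and 3.46 CPM (3.89, SE 0.73), with combination replicate 2, the library rich in collagen transcripts, the highest.

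**Figure D2:**
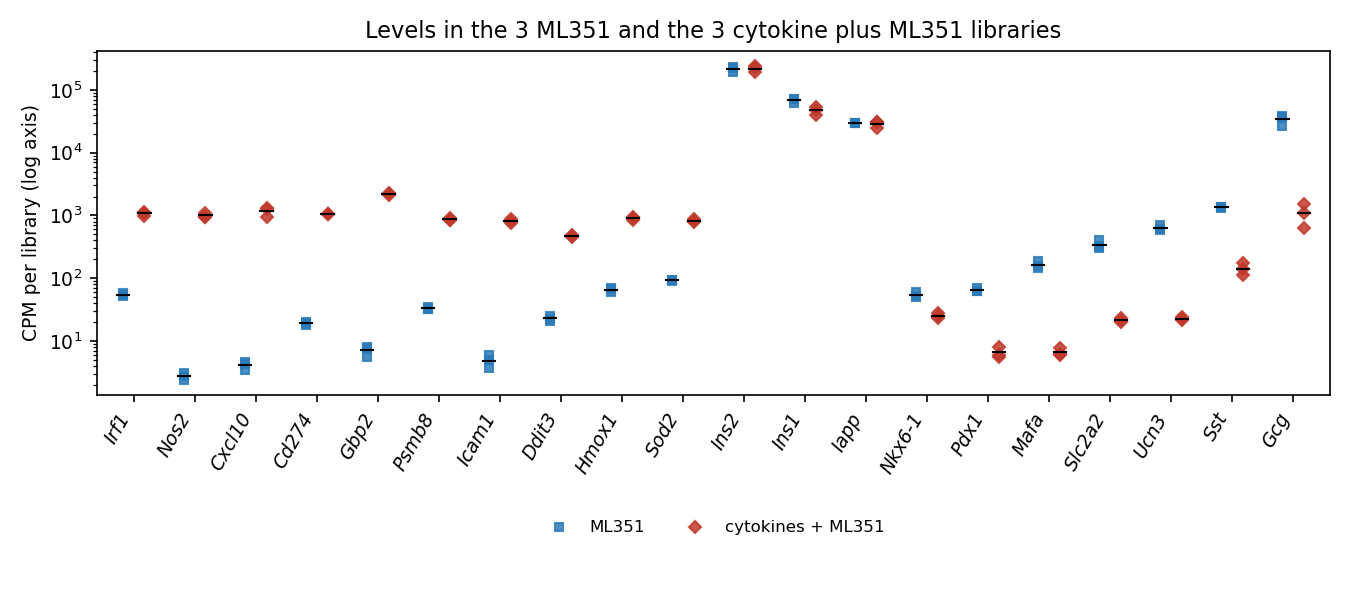
CPM (log axis) of 20 genes in each of the 3 ML351 libraries (blue squares) and the 3 combination libraries (red diamonds), with black bars at the group means. From Irf1 to Sod2 the combination lies above ML351, for Ins2 and Iapp the groups overlap, and for Ins1 and from Nkx6-1 to Gcg the combination lies below.

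The promoters of 5 of these genes follow because these genes rose together and their windows hold elements of the kind that STAT proteins, IRF proteins and NF-κB are known to bind. Windows of 300 bases, from 250 before to 50 after the RefSeq start site on GRCm38.p6, were searched on both strands for an ISRE core (GAAANNGAA, bound by IRF proteins and the complex of STAT2 and IRF9), a GAS element (TTCNNNGAA, bound by STAT dimers), a κB core (GGGANNTTC) and an AP-1 element (TGANTCA). Sequences read 5′ to 3′ along the gene's strand. Capitals mark GAS in Irf1 (chr11:53769764-53770063, plus strand), and ISRE and κB cores in Cxcl10 (chr5:92348840-92349139, minus), Gbp2 (chr3:142620413-142620712, plus), Cd274 (chr19:29367188-29367487, plus) and Nfkbia (chr12:55492598-55492897, minus).
Irf1: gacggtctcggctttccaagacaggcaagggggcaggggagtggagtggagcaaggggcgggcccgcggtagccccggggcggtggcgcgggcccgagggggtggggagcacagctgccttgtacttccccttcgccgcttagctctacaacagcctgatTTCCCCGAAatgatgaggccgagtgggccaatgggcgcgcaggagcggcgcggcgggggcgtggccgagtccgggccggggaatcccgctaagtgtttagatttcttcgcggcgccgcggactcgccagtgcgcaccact
Cxcl10: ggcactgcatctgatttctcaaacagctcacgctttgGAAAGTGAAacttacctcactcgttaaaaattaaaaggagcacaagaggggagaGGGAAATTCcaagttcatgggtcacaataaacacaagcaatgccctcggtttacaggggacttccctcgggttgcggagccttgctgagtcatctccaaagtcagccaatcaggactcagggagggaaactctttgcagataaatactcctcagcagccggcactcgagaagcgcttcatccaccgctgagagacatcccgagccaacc
Gbp2: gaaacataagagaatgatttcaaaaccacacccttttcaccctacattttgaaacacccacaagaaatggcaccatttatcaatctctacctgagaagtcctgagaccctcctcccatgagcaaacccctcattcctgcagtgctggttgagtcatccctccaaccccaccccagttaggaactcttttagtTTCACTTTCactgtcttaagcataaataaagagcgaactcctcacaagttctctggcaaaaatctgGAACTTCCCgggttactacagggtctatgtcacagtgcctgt
Cd274: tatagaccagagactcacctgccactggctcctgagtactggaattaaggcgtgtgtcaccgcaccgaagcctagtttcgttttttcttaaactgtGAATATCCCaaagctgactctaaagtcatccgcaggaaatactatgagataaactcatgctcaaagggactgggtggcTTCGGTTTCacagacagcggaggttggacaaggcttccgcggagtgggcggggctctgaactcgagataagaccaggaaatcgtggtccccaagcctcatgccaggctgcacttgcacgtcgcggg
Nfkbia: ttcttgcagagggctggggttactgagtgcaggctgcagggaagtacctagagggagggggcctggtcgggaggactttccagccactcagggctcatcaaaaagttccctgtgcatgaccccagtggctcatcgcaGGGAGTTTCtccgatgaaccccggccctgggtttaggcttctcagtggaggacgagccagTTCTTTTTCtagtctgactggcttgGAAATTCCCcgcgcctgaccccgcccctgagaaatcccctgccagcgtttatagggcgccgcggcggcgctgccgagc
The GAS match of Irf1 began 90 bases before the start site. In Cxcl10 the ISRE core began 213 and the κB core 159 bases before it. In Gbp2 the ISRE core began 58 bases before the start and the κB core lay after it, in Cd274 they began 76 and 154 bases before, and in Nfkbia the ISRE core began 53 bases before and 2 κB cores 113 and 28 bases before. A 2nd Irf1 window and that of Tap1 held none of the 4 motifs.

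Over all genes with a window in the RefSeq table (10692 of 14089 genes, 13690 windows), an ISRE core occurred in 7.20% of windows, a GAS element in 7.05%, a κB core in 3.67% and an AP-1 element in 5.49%. Among the windows of called genes over 4-fold higher (784 windows of 637 genes) the shares were 16.2%, 11.4%, 8.04% and 13.9%. Among those over 32-fold higher, a subset of 130 windows, they were 29.2%, 19.2%, 16.9% and 23.9%. In genes over 4-fold lower (773 windows) they were 6.99%, 4.79%, 3.23% and 6.73%. ISRE and GAS letters can overlap, as they did in 23 of the 110 windows that held both. These shares are descriptions with no test, and a match is not a binding site.

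**Figure D3:**
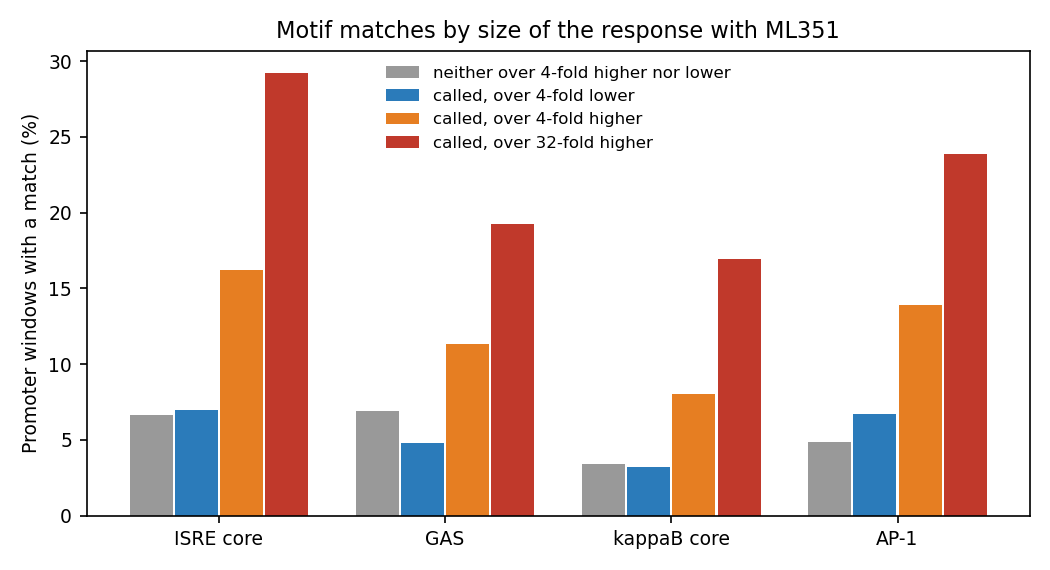
Share of 300-base promoter windows (vertical axis, percent) with at least 1 match to each of 4 motifs, for genes changed by less than 4-fold or not called (grey), over 4-fold lower (blue), over 4-fold higher (orange) and over 32-fold higher (red, a subset of the orange). All 4 motifs are most frequent in the red bars, with 29.2% for the ISRE core.

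Nos2, which encodes inducible nitric oxide synthase, stood at 2.42, 2.73 and 3.07 CPM with ML351 and at 957, 946 and 1092 CPM with the combination (8.50, SE 0.13, edgeR adjusted p = 2.4e-17; chromosome 11, 78920787 to 78960254). All 3 combination libraries lay far above all 3 ML351 libraries, with no overlap. The arginine-consuming competitor Arg1 fell from 32.4, 38.4 and 37.2 to 0.929, 2.12 and 0.933 CPM (-4.73, SE 0.27), while Arg2 rose from 0.255, 0.219 and 0.236 to 1.42, 3.36 and 1.45 CPM (3.11, SE 0.43). The arginine transporter genes split, Slc7a1 rising by 0.83 and Slc7a2, which is also an alpha-cell gene, falling from 156, 172 and 144 to 68.2, 71.6 and 72.3 CPM (-1.16). Gch1, for the cofactor tetrahydrobiopterin, rose by 0.36 (SE 0.06).

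Acute-phase and iron-handling genes rose with the immune genes. Cfb, complement factor B, went from 77.2, 55.9 and 85.6 to 4602, 4983 and 5474 CPM (6.11, SE 0.22) and C1ra from 3.44, 3.53 and 3.82 to 438, 440.4 and 443 CPM (6.93, SE 0.08). Of 15 complement genes 9 rose, including C3 (4.40) and the inhibitor Serping1 (2.95), and 2 fell, including the C3b-cleaving factor Cfi (-3.77). Hamp, encoding hepcidin, which blocks iron export, stood at 0.8497, 0.765 and 0.945 CPM and then at 213, 190.4 and 221 CPM (7.93, SE 0.12). Transcripts of the iron exporter Slc40a1 fell from 105, 109 and 110.3 to 19.5, 19.8 and 20.3 CPM (-2.45, SE 0.06). Those of the ferritin chain Fth1 rose from 538, 512 and 517 to 2419, 2569 and 2542 CPM (2.27). Lcn2, a siderophore-binding protein, rose by 5.37 (SE 0.31). The groups did not overlap for any of these genes.

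The integrated stress response list rose for 15 of 20 members (median 0.98), with values for the best known below. Ddit3, which encodes the pro-apoptotic factor CHOP, stood at 24.8, 21.1 and 22.7 CPM with ML351 and at 469.9, 479 and 459 CPM with the combination (4.36, SE 0.07, edgeR adjusted p = 6.2e-18). Atf3 rose from 5.06, 3.53 and 7.13 to 142, 147 and 138 CPM (4.77, SE 0.19), the eIF2α phosphatase subunit Ppp1r15a by 3.07 and the pseudokinase Trib3 by 2.90, while Atf4 itself rose by 0.92 (SE 0.06) and the asparagine synthetase gene Asns by 0.44 (SE 0.05). Chac1 (-0.26, SE 0.09) and Vldlr (-0.24, SE 0.07) fell slightly, and Eif2ak4, Eif2ak1 and Fgf21 did not pass. The count of 2 lower ranged from 1 to 4 over the alternatives. The call of Vldlr was lost without ML351 replicate 1 and that of Chac1 without ML351 replicate 3 or combination replicate 4, and the count was 4 with upper quartile scaling. Cytosolic heat shock genes rose in 14 of 15 cases, with Hspa1a at 3.84, Hspa8 from 646, 647 and 628 to 4072, 3990.0 and 4986 CPM (2.76) and Hsp90aa1 at 1.95.

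Chaperones of the endoplasmic reticulum took the other direction: 15 of 26 genes fell and 7 rose (median -0.29). Hspa5, the chaperone BiP, rose by 0.26 (SE 0.06), whereas the disulphide isomerases Pdia4 and Pdia6 fell by 1.02 and 1.00 on the log2 scale. Ero1lb, the β-cell oxidase for insulin folding, fell from 1393, 1648 and 1451 to 295, 303 and 327 CPM (-2.28, SE 0.07) and its relative Ero1l rose by 1.34 (SE 0.12). The calcium pumps Atp2a2 and Atp2a3, which fill the reticulum, fell by 1.29 and 1.63 on the log2 scale. Xbp1 was at 0.08 (adjusted p = 0.25).

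Genes against oxidative stress rose for the most part. Sod2, the mitochondrial superoxide dismutase and a κB target, stood at 90.8, 94.9 and 93.5 CPM and then at 817, 788 and 878 CPM (3.15, SE 0.07, edgeR adjusted p = 1.2e-16), and Hmox1, the haem oxygenase, at 68.95, 60.9 and 67.9 CPM and then at 924, 949 and 843 CPM (3.78, SE 0.11). Neither gene's groups overlapped. Of 26 antioxidant enzymes 15 rose and 6 fell: Mt2 (3.56), Mt1 (2.60) and the glutathione peroxidase Gpx1 (87.99, 96.3 and 99.3 to 394, 360.0 and 459 CPM, 2.10) were higher, and the secreted peroxidase Gpx3 fell from 713, 728 and 588 to 44.5, 72.7 and 66.1 CPM (-3.47, SE 0.25). Of 23 genes for NRF2 and its targets 19 rose (median 1.11), with Gclm at 1.66, Ftl1 at 1.56 and Mafk at 1.79. The cystine transporter Slc7a11 was at 34.8, 7.91 and 9.57 CPM with ML351, replicate 1 the highest, and at 91.6, 142 and 105 CPM with the combination (2.71, SE 0.51). Txnip, which binds and inhibits thioredoxin, fell from 39.5, 41.8 and 44.1 to 31.5, 27.02 and 29.1 CPM (-0.52, SE 0.11). The NADPH oxidase subunits Cybb (2.58) and Cyba (2.41) rose, while Duox2 (2.26, adjusted p = 0.22) and Duoxa2 (3.02, adjusted p = 0.11) did not pass in edgeR with all libraries and passed without ML351 replicate 1 or by limma-voom.

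Enzymes of eicosanoid synthesis include the target of ML351, whose own gene is not analysed here. Of 18 tested, 12 rose and 2 fell. Alox12, the platelet-type 12-lipoxygenase, went from 0.382, 0.328 and 0.315 to 11.8, 9.49 and 13.1 CPM (5.05, SE 0.25, adjusted p = 7.6e-12 by edgeR; chromosome 11, 70241457 to 70255353), every combination library lying above every ML351 library. Ptgs2, cyclooxygenase 2, rose from 2.85, 1.79 and 3.504 to 32.4, 97.8 and 33.2 CPM (4.34, SE 0.56), highest in combination replicate 2, and the prostaglandin E synthase Ptges from 7.86, 5.28 and 7.99 to 43.9, 68.8 and 46.2 CPM (2.92, SE 0.24). Hpgds, which makes prostaglandin D2, rose by 1.91. Alox5ap, the activating protein of 5-lipoxygenase, fell from 4.93, 5.32 and 6.34 to 1.42, 1.501 and 1.76 CPM (-1.82, SE 0.19) and the phospholipase Pla2g6 from 57.01, 62.2 and 49.7 to 17.6, 19.1 and 19.7 CPM (-1.58, SE 0.09).

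Of 9 death receptor and necroptosis genes 7 rose and 1 fell. Fas, the death receptor, stood at 0.807, 0.765 and 0.984 CPM and then at 44.3, 39.4 and 42.97 CPM (5.62, SE 0.13), and Mlkl, the effector of necroptosis, rose by 5.18 (SE 0.09). Of 12 caspase and inflammasome genes 10 rose, among them Casp4 (6.33), Casp1 (4.95) and Gsdmd (3.46), which opens pores in the membrane. In the BCL2 family 8 of 16 rose and 2 fell. The pro-apoptotic Bid (2.15) and Bax (0.88) and the protective Bcl2l1 (1.18) rose together, and Bcl2 fell from 2.29, 3.72 and 3.39 to 0.977, 2.03 and 1.76 CPM (-0.97, SE 0.30).

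Of the genes that define the mature β cell, most fell, while the main secreted products changed little. Among 20 β-cell transcription factors 17 fell and 3 rose (median -1.42). Mafa stood at 155, 189 and 143 CPM with ML351 and at 6.06, 7.82 and 6.22 CPM with the combination (-4.59, SE 0.13, edgeR adjusted p = 5e-13; chromosome 15, 75745490 to 75748228), and Pdx1 at 61.6, 69.99 and 61.5 CPM and then at 8.11, 6.05 and 5.55 CPM (-3.29, SE 0.11; chromosome 5, 147269959 to 147275848). Neurod1 (-1.98), Pax6 (-1.91), Nkx2-2 (-2.29) and Rfx6 (-1.58) fell without overlap, and Nkx6-1 fell less, from 50.7, 61.3 and 51.3 to 27.7, 22.8 and 25.2 CPM (-1.11, SE 0.09). Those that rose included Insm1 (0.35, SE 0.08) and Glis3 (0.27, SE 0.07; not called with upper quartile scaling).

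The glucose sensing list fell in 20 of 26 cases (median -1.63). Slc2a2, the glucose transporter GLUT2, went from 299.9, 403 and 326 to 20.2, 20.7 and 23.2 CPM (-4.01, SE 0.11, edgeR adjusted p = 9e-14), and Ucn3, a β-cell maturity marker, from 599, 692 and 591 to 21.99, 21.3 and 24.3 CPM (-4.80, SE 0.12). G6pc2 (-3.03), the zinc transporter Slc30a8 (-2.54), the incretin receptor Glp1r (-2.21) and the fatty acid receptor Ffar1 (-3.16) fell, all without overlap. The subunits of the ATP-sensitive potassium channel fell less, Abcc8 by 0.94 and Kcnj11 by 0.17 on the log2 scale. The call of Kcnj11 was lost in 10 of 22 alternatives, among them without each ML351 library, combination replicates 1 or 4 or cytokine replicate 1. The hormones differed from these genes. Ins2 was at 192436, 233249 and 222177 CPM with ML351 and at 221249, 191623 and 236865 CPM with the combination, the ranges overlapped, and the log2 fold change of 0.00 (95% interval -0.20 to 0.21, adjusted p = 0.97) did not pass. Iapp, co-secreted amylin, did not pass either (-0.04, 95% interval -0.22 to 0.14, adjusted p = 0.68). Ins1 fell from 62061, 71832 and 71996 to 47046, 40357 and 53765 CPM (-0.54, SE 0.10). Chromogranin Chgb rose by 0.50 and Chga fell by 0.40.

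Prohormone processing split with 5 of 11 genes higher (45.5%) and 6 lower (54.5%), against 35.2% and 36.4% of all genes. The convertases Pcsk1 (953, 957 and 806 to 222, 199.9 and 235 CPM, -2.05) and Pcsk2 (-0.88) fell, and the carboxypeptidase Cpe rose (0.76, SE 0.06). The exocytosis list held 10 higher (40%) and 12 lower (48%) of 25, with Rab3a (109, 107 and 103 to 23.3, 24.7 and 22.2 CPM, -2.18), Cplx2 (-2.84) and Rab27a (-1.59) lower.

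Transcripts of the other endocrine cells of the islet fell as well. All 12 alpha-cell genes fell (median -3.52), and their summed level went from a range of 29033 to 41674 CPM with ML351 to 1042 to 2039 CPM with the combination. Gcg, glucagon, was at 36878, 38884 and 26688 CPM and then at 631, 1111 and 1547 CPM (-4.96, SE 0.42, edgeR adjusted p = 5.9e-06; chromosome 2, 62474530 to 62483650). The protease Dpp4 (-2.82) and Irx2 (-4.22) fell too. All 7 delta-cell genes fell (median -2.95), Sst from 1335, 1362 and 1362 to 139.8, 172 and 112 CPM (-3.26, SE 0.18) and Casr by 2.95 on the log2 scale. All 5 PP-cell genes fell. Pyy went from 1829, 1995 and 2565 to 72.5, 92.2 and 61.2 CPM (-4.82, SE 0.26), but Ppy was uneven within both groups, at 2323, 2421 and 7114 CPM and then at 749.8, 1126 and 239 CPM (-2.49, SE 0.64, adjusted p = 0.0071), with ML351 replicate 3 the highest. Its call was lost when only the 6 libraries compared were fitted.

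Genes used as signs of lost maturity did not move one way. Of 14 tested, 9 rose, among them Slc16a1 (3.03), Myc (9.69, 4.55 and 5.28 to 32.5, 37.4 and 36.9 CPM, 2.46) and Hk2 (3.46, SE 0.52), genes usually low in mature β cells. Neurog3, the endocrine progenitor factor, fell from 428 counts in the ML351 libraries to 2 in the combination, 0.572% of the ML351 level (0.0690% to 2.08%), and Aldh1a3 fell by 1.80 on the log2 scale.

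Among the 12 largest falls under the naming rule were genes of several kinds. Sfrp5, a secreted WNT inhibitor, went from 51.9, 64.1 and 41.97 to 0.195, 0.486 and 0.518 CPM (-7.02, SE 0.23, edgeR adjusted p = 1.6e-12). The oxytocin receptor gene Oxtr (-6.68), endothelin 3, Edn3 (-6.53), Kctd12b (-6.42), the matrix link protein Hapln1 (-6.22), the kinase Wnk3 (-4.90), matrix Gla protein, Mgp (-4.76), and Klotho, Kl (-4.75), followed, beside Gcg, Pyy and Ucn3. In ML351 replicate 3 Oxtr, Hapln1, Wnk3 and Kl were lower than in the other ML351 libraries (Oxtr 47.6, 44.1 and 28.6 CPM, Kl 20.1, 21.3 and 12.1 CPM). The rule admitted only genes whose groups did not overlap, so the lack of overlap for these genes is no separate result. Among the 12 largest rises were also Ubd, the ubiquitin-like FAT10 (0.3399, 0.255 and 0.118 to 115, 146 and 99.9 CPM, 8.97), the protease inhibitor Serpina3g (8.24) and Ly6i, with 2 counts against 1270 (0.129% of the combination level, 0.0156% to 0.466%).

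Of 22 glycolysis and hypoxia genes 19 rose and 1 fell (median 1.13). Slc2a1, the transporter GLUT1, went from 31.4, 26.5 and 26.9 to 422, 422 and 449 CPM (3.93, SE 0.19), the opposite of Slc2a2, and Pfkfb3, which makes the activator of phosphofructokinase, from 5.14, 4.23 and 4.69 to 108, 115 and 119 CPM (4.61, SE 0.13). Aldoa (1.21), Tpi1 (1.30) and Gapdh (1.14) rose and the muscle-type phosphofructokinase Pfkm fell (-1.75). Oxidative phosphorylation genes changed by less, 17 of 32 higher and 6 lower with a median of 0.23. Ndufa4 fell from 134, 132 and 144 to 52.05, 50.3 and 43.8 CPM (-1.49, SE 0.07) and Cycs, cytochrome c, rose by 0.86.

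Lipid synthesis fell in 20 of 27 genes and rose in 2 (median -0.80). Acly, which makes cytosolic acetyl-CoA from citrate, went from 3827, 4055 and 3923 to 1243, 1178 and 1235 CPM (-1.69, SE 0.06, adjusted p = 5.5e-14 by edgeR), and Fasn fell by 1.86 and Srebf1 by 1.02 on the log2 scale. Fdps (1.29) and Fdft1 (0.71), which act in sequence towards squalene, rose. Cell cycle genes fell in 21 of 29 cases. The 2 that rose were Cdkn1a, the inhibitor p21, from 34.5, 26.4 and 24.3 to 215, 188 and 193 CPM (2.81, SE 0.10), and Pcna (0.45, SE 0.08). Ccnd2 fell by 0.52 on the log2 scale and the proliferation marker Mki67 from 1.61, 1.97 and 1.77 to 0.489, 0.618 and 0.363 CPM (-1.84).

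The circadian list held 7 higher (41.2%) and 6 lower (35.3%) of 17, near the 35.2% and 36.4% of all genes. Nr1d1 (22.8, 22.6 and 19.4 to 79.3, 88.98 and 83.9 CPM, 1.96) and Bhlhe40 (2.29) were higher and Arntl (-0.81) and Cry2 (-0.89) lower. Immediate early genes rose in 12 of 17 cases, led by the AP-1 subunit Jun (2.80) and by Klf6 (2.82), while the nuclear receptor Nr4a2 fell from 28.3, 22.8 and 17.9 to 7.18, 5.65 and 4.15 CPM (-2.02, SE 0.18). Of 22 amino acid transporters and tRNA synthetases 15 rose, including Slc3a2 (1.55) and Yars (1.31). Among genes of the aryl hydrocarbon receptor and xenobiotic metabolism 8 of 13 rose and 2 fell, one of them Cyp1a1, the receptor's best known target, from 6.97, 11.8 and 7.87 to 0.293, 1.59 and 0.363 CPM (-3.51, SE 0.52).

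Markers of the other cells in an islet preparation moved between the groups and are given here for the results above. Endothelial markers fell in all 13 tested cases, with summed levels of 141 to 148 CPM with ML351 and 19.3 to 23.8 CPM with the combination. Kdr, the VEGF receptor, went from 22.8, 22.1 and 20.5 to 1.32, 0.707 and 1.66 CPM (-4.16, SE 0.20) and Emcn, endomucin, from 9.52, 9.33 and 9.65 to 0.0489, 0.177 and 0.104 CPM (-6.34, SE 0.46). Ductal markers summed to 1461 to 1803 CPM and then to 4661 to 5340 CPM, with 8 of 12 higher, led by the keratins Krt8 (2.97) and Krt18 (2.20), which endocrine cells also express, while Krt19, the more duct-specific keratin, passed only without ML351 replicate 1 or by limma-voom (2.09, adjusted p = 0.12 with all libraries). Stellate and fibroblast markers ranged from 212 to 470 CPM with ML351 and from 71.3 to 249.9 CPM with the combination, where the highest was replicate 2. In that list 8 of 18 fell (44.4%, against 36.4% of all genes), 9 did not pass the test and 1 rose, Dcn (2.47, SE 0.70). The count of rises was 0, with the Dcn call lost, when only the 6 libraries compared were fitted. It was 4 without ML351 replicate 3, 3 without combination replicate 1 and 2 without combination replicate 4. Schwann and neuronal markers fell in 4 of 9 cases (44.4%, against 36.4% of all genes), and 1 rose, Cnp (1.63). Their summed level was 204 to 238 CPM with ML351 and 194 to 209 CPM with the combination. Gfap was among those that fell (0.5098, 2.77 and 5.35 and then 0, 0.0442 and 0.363 CPM). Its call was lost without combination replicate 2 and with limma-voom. Of 15 lymphocyte markers 2 were tested, with summed levels of 3.95 to 4.65 CPM with ML351 and 14.0 to 17.5 CPM with the combination. Lck, a T-cell kinase, rose from 2.68, 2.19 and 3.03 to 13.6, 12.9 and 16.6 CPM (2.45, SE 0.14). The B-cell receptor subunit Cd79a fell from 1.27, 2.004 and 1.61 to 1.03, 1.06 and 0.881 CPM (-0.72, SE 0.28), a call lost without ML351 replicates 2 or 3 or combination replicate 4, with only the 6 libraries compared and with DESeq2. The part of lymphocytes in the values of the cytokine genes was not tested.

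Acinar enzymes rose between these 2 groups. Of 26 acinar markers 17 were called higher and 1 lower (median 2.81), and their summed level was 215 to 414 CPM with ML351 and 1182 to 1739 CPM with the combination. Prss2, a trypsinogen, stood at 34.3, 47.9 and 9.29 and then at 285, 295 and 184 CPM (3.06, SE 1.04, adjusted p = 0.027 by edgeR) and Ctrl, a chymotrypsin-like protease, at 3.57, 1.603 and 0.6300 and then at 22.5, 29.1 and 22.5 CPM (3.69, SE 0.96). The Prss2 call was lost without ML351 replicates 1 or 3 or combination replicates 1 or 2. Leaving out 1 of the 6 libraries left 5 to 11 called higher in place of 17, with 6, 11 and 5 without ML351 replicates 1, 2 and 3 and 9, 9 and 11 without combination replicates 1, 2 and 4. The same sum was 266 to 811 CPM with vehicle and 55.6 to 1021 CPM with cytokines alone. The latter range was wide enough to include the ML351 values, while the combination values lay above both ranges. The acinar transcription factor gene Bhlha15, which β cells also express, fell from 113, 109.6 and 105 to 15.5, 13.2 and 12.5 CPM (-2.99). Try10 was at 0 in ML351 replicates 1 and 3. The part of exocrine tissue in other results was not tested. Trypsinogen genes have near copies, so single values in that family are uncertain.

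To ask what ML351 changed in the cytokine response, the effect above was set against that of cytokines over vehicle in the same model. The 2 effects use different libraries. Without ML351, 10209 genes were called (72.5%), and 9189 genes were called in both with the same sign, 91.2% of the calls with ML351 and 90.0% of those without. Only 3 genes were called with opposite signs, each by less than 1 on the log2 scale and picked here after their values were seen: Eva1b (-0.27 with ML351 and 0.34 without), Gpr4 (-0.74 and 0.69) and Acvr1 (0.25 and -0.26). With ML351 all 3 calls were lost when single libraries were left out, each of them without combination replicate 2 and without ML351 replicate 1. The median size of the log2 fold change was 0.65 with ML351 and 0.68 without. Across genes, which are not independent replicates, Pearson's r of the 2 sets of log2 fold changes was 0.948 and Spearman's rho 0.954.

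**Figure D4:**
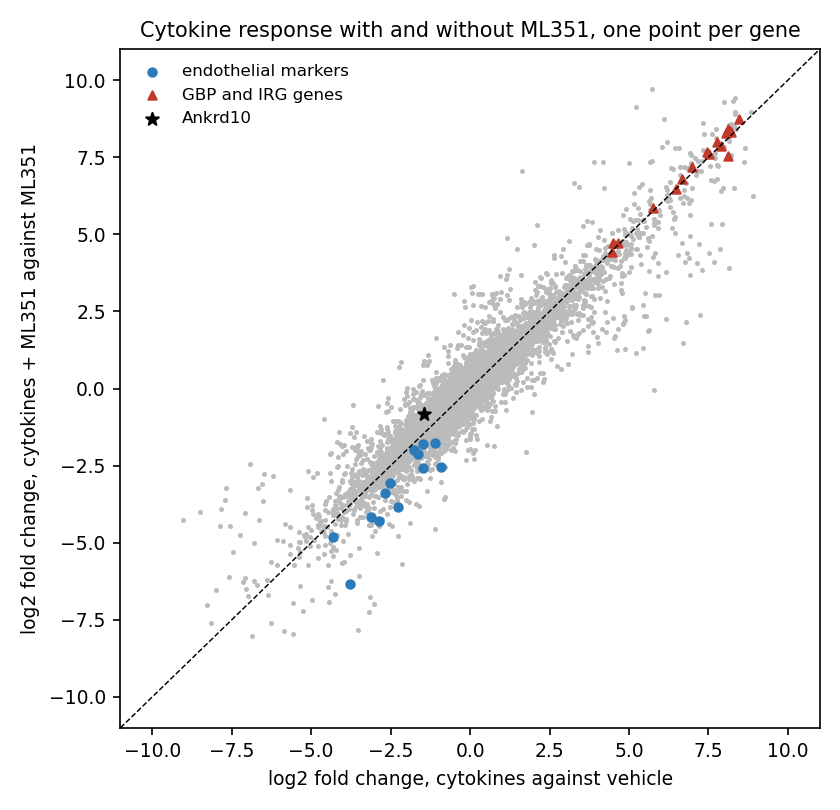
Log2 fold change of each of 14089 genes with cytokines in the absence (horizontal axis) and presence (vertical axis) of ML351, with the dashed line marking equality. GBP and IRG genes (red triangles) lie close to the line, endothelial markers (blue circles) lie below it, and Ankrd10 (black star) lies above it.

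In edgeR the difference between the 2 effects was called for 1 gene (0.00710% of those tested). It had an unadjusted p under 0.05 for 1160 (8.23%), 626 of them negative and 534 positive. DESeq2 called 44 genes for the difference. Among the 9102 genes whose mean log2 CPM reached 3, the 95% interval of the difference typically extended 0.26 to either side on the log2 scale (median). The gene called in edgeR was Ankrd10, which encodes an ankyrin repeat protein. It stood at 84.2, 80.5 and 88.9 CPM with vehicle, 30.5, 29.6 and 31.9 CPM with cytokines, 68.3, 68.7 and 71.4 CPM with ML351 and 40.2, 39.5 and 36.7 CPM with the combination. Cytokines lowered it in both settings, by less with ML351 (-0.84) than without (-1.46; difference 0.62, 95% interval 0.44 to 0.81, edgeR adjusted p = 0.03). The call was lost in 12 of 21 alternatives, and its adjusted p ranged from 1.5e-06 to 0.34. In 10 of the 12 a single library was left out: each ML351 library, each cytokine library, vehicle replicates 1 and 4 or combination replicates 1 and 2.

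Several genes described above are given here as examples. The difference was 0.11 for Irf1 (95% interval -0.09 to 0.32), 0.21 for Nos2 (-0.17 to 0.59), 0.05 for Cxcl10 (-0.62 to 0.73) and 0.12 for Cd274 (-0.07 to 0.32). Among stress genes it was -0.33 for Ddit3 (-0.53 to -0.13, adjusted p = 0.37 by edgeR), whose interval did not include 0, -0.15 for Hmox1 (-0.46 to 0.16) and -0.10 for Sod2 (-0.28 to 0.09), and among β-cell genes 0.06 for Pdx1 (-0.27 to 0.40), 0.04 for Mafa (-0.36 to 0.44), -0.05 for Slc2a2 (-0.36 to 0.25) and 0.07 for Ins2 (-0.21 to 0.36). Of these 11 intervals 10 included 0, and none of the genes passed after adjustment, which does not show that the effects were equal. The intervals allow, for example, a Nos2 response up to 0.59 larger or 0.17 smaller on the log2 scale. Intervals of some other genes named above excluded 0, among them the following. The difference was -0.41 for Irf7 (-0.68 to -0.15), -0.32 for Nfkbia (-0.56 to -0.09), -0.30 for Trib3 (-0.50 to -0.09) and -0.34 for Oasl2 (-0.63 to -0.05), and it was positive for H2-Aa at 0.57 (0.14 to 1.00). None of these passed after adjustment. In some lists, picked after their values were seen, all differences with an unadjusted p under 0.05 were negative. They numbered 4 of 20 for the integrated stress response and 6 of 26 for ER chaperones and the unfolded protein response. For oxidative phosphorylation they numbered 5 of 32 and for the antiviral genes 4 of 25. The share over all genes was 8.23% in either direction, 626 negative and 534 positive. Other lists had only positive ones, among them heat shock chaperones (2 of 15) and immediate early genes (2 of 17). Genes of a list are not independent. Medians by list were 7.60 with ML351 and 7.51 without for the GBP and IRG genes, 3.28 and 3.35 for class I presentation, 0.98 and 0.98 for the integrated stress response, 1.11 and 1.25 for NRF2 targets and -1.42 and -1.37 for β-cell transcription factors. For class II they were 3.86 and 3.30, the median difference was 0.45, and 2 of the 8 differences had an unadjusted p under 0.05, both positive.

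The endothelial and acinar lists departed furthest from equal medians among the cell type lists of 5 or more genes. The endothelial median was -3.07 with ML351 and -2.26 without. Each of the 13 differences was negative, and 8 had an unadjusted p under 0.05, against 8.23% of all genes, but none passed after adjustment in edgeR. These genes mark 1 cell type and were measured in the same libraries, so they are not independent replicates and their number adds no weight. Plvap, which forms the diaphragms of fenestrated capillaries, stood at 14.9, 17.1 and 19.8 CPM with vehicle, 1.94, 2.11 and 3.02 with cytokines, 19.9, 24.2 and 20.2 with ML351 and 1.27, 0.883 and 1.14 with the combination (difference -1.41, 95% interval -1.96 to -0.86, adjusted p = 0.18). Emcn stood at 7.64, 6.400 and 8.93 CPM with vehicle, 0.202, 0.392 and 1.11 with cytokines, 9.52, 9.33 and 9.65 with ML351 and 0.0489, 0.177 and 0.104 with the combination (difference -2.55, -4.02 to -1.07, adjusted p = 0.37). Cdh5, VE-cadherin, stood at 2.89, 2.06 and 3.22 CPM with vehicle, 1.49, 1.28 and 1.56 with cytokines, 4.16, 2.26 and 3.46 with ML351 and 0.489, 0.5299 and 0.674 with the combination (difference -1.62, -2.51 to -0.74, adjusted p = 0.33). For all 3 the combination libraries lay below the cytokine libraries, and for Plvap and Emcn the ML351 libraries lay above the vehicle libraries. The acinar median was 2.81 with ML351 and 0.42 without, with 1 of 26 differences under an unadjusted p of 0.05. For Prss2 the difference was 2.82 (95% interval -0.41 to 6.05, adjusted p = 0.64), and its cytokine libraries held 6.69, 104 and 144 CPM.

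**Figure D5:**
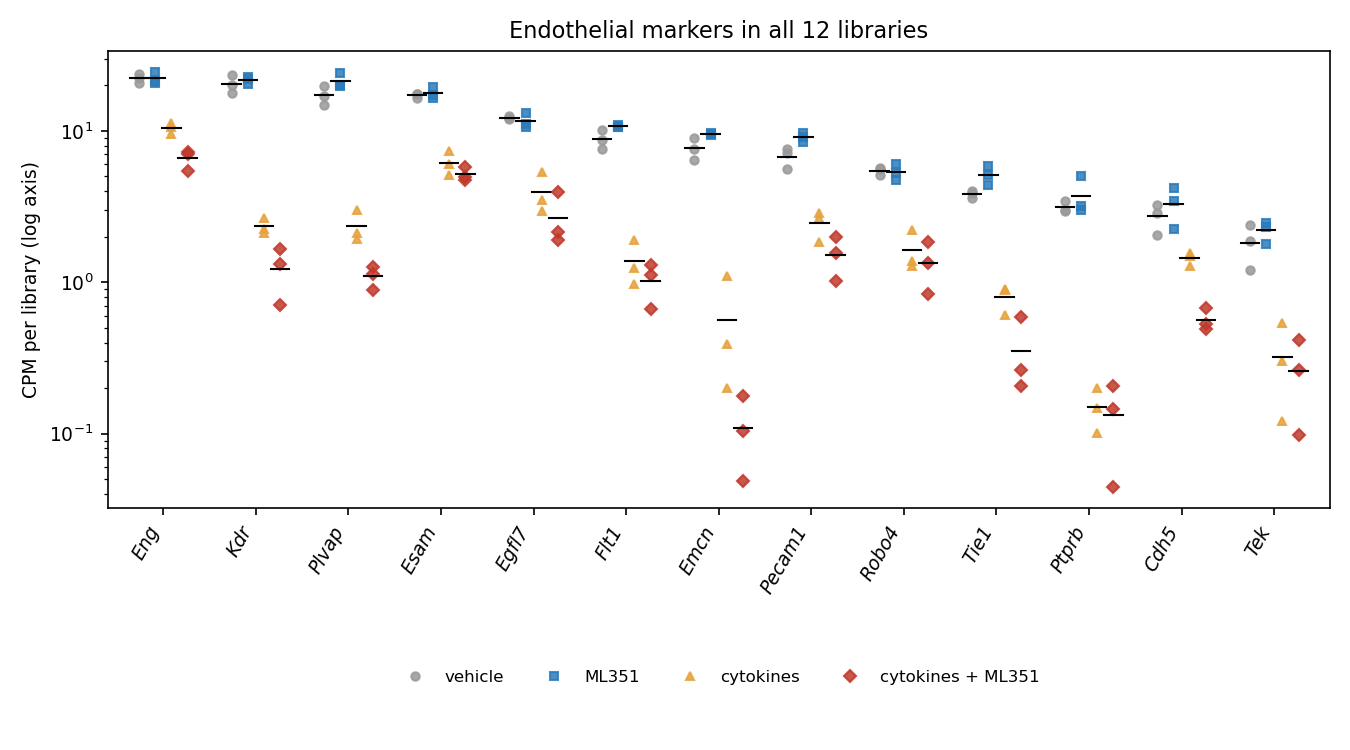
CPM (log axis) of the 13 tested endothelial markers in all 12 libraries, grouped as vehicle (grey circles), ML351 (blue squares), cytokines (orange triangles) and the combination (red diamonds), with black bars at the group means. Both cytokine groups lie below both groups without cytokines for every gene, and the combination mean is the lowest for every gene.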

How the data were processed

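RNA of 12 islet libraries, 3 per group, was sequenced from nonstranded cDNA libraries made with a low-input kit, which leave overlapping sense and antisense transcripts indistinguishable. The authors deposited 1 table of raw counts per gene symbol. Per the submitters' processing notes, the tools were FastQC, STAR, Subread with featureCounts, and DESeq2, and the build was mm10. Versions, roles and counting parameters were not given in the sources used.

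Groups came from the labels. The counts were fitted with edgeR 4.0.16 in R 4.3.3 (limma 3.58.1): TMM scaling, the default expression filter, which kept all 14089 genes, and robust quasi-likelihood F-tests in one model of the 12 libraries. The contrasts were the combination against ML351, cytokines against vehicle, and the difference between those effects. Genes with a Benjamini-Hochberg adjusted p under 0.05 over all 14089 genes were called, and errors are standard errors and 95% intervals of the fit. Totals ranged from 20208286 to 27193026 counts.

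Named genes were the 12 largest rises and falls among called genes whose mean log2 CPM reached 3 and whose groups did not overlap. Up to 4 members per list with the smallest p and 21 set genes were added. Genes called for the difference were also named, at most the 8 with the smallest p, and 1 was called. Unnamed gene models were passed over, and some genes that the rule picks are not reported here. Every other gene named was chosen after its values were seen. The members and the 49 lists were chosen with earlier results of these data known. Of 14089 symbols, 13564 matched 1 gene of GENCODE M21 (GRCm38), which gave positions, and 14057 matched RefSeq.

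Alternatives were other scalings (RLE, upper quartile, totals alone, totals without insulin and acinar genes), other filters, the 6 libraries alone, the replicate number as a block, each library left out in turn, limma-voom and DESeq2 1.42.0. Scripts ran in Python 3.11.15 with pandas 2.3.3 and scipy 1.17.1, and figures were drawn with matplotlib 3.10.9.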

Additional observations from a re-analysis of the deposited data

Results flagged for a closer look

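Ankrd10 was the gene called by edgeR's test of the difference between the cytokine effects with and without ML351. The log2 fold change was -0.84 with ML351 and -1.46 without, a difference of 0.62 (edgeR adjusted p = 0.03, over 14089 genes). DESeq2 called 44 genes for the difference, and library totals alone called 0. The values of Ankrd10 did not overlap between any 2 of the 4 groups, with n = 3 libraries each. The call was lost in 12 of 21 alternatives, 10 of them with 1 library left out, and the adjusted p ranged from 1.5e-06 to 0.34.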

How the results depend on the processing

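The number of genes called between the combination and ML351 stayed within 1.5 times of 10079 in all 22 alternatives, from 9448 without ML351 replicate 2 to 10242 with limma-voom. Upper quartile scaling moved the median log2 fold change of all genes from -0.02 to -0.14 and the share of calls that were higher from 49.2% to 42.3%. With library totals alone the values were -0.10 and 44.6%. The count of 1 gene called for the difference was 0 with library totals alone, 0 with the replicate block and 44 with DESeq2 (9560 adjusted p-values not given by DESeq2). It ranged from 0 to 1 when each library was left out. Of 305 genes called under the naming rule or added to it, 292 were called in every alternative, 13 were lost in at least 1 and 0 reversed. The cause of these losses was not tested. Acinar markers called higher fell from 17 to 3 under the replicate block, Schwann markers called lower from 4 to 2 under the block and with limma-voom, and mitochondrial genes called lower went from 5 to 8 with upper quartile scaling. Same-numbered libraries did not deviate together (correlations from -0.409 to 0.282 over 13 pairs), so the numbers were not taken as pairs. The block gave 9622 genes called between the combination and ML351, and Ppy, Prss2, Chac1, Gfap, Gpr4, Kcnj11 and Cd79a were not called under it. The deposited table held no gene that the default filter removed, so no filter gave the same counts.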

Other observations

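Other genes that were near absent in one group fell outside the lists and were picked after their values were seen. Gphb5, a glycoprotein hormone subunit, had 0 counts in the ML351 libraries and 215 in the combination, 87.7-fold higher with 3 counts over the group set as the floor. Il1rl1, the IL-33 receptor, had 0 against 208 counts, 84.9-fold higher with that floor. The exact 95% intervals of their ML351 levels reached up to 1.41% and 1.46% of the combination level. In the other direction Avpr1b, a vasopressin receptor, had 1072 counts with ML351 and 3 with the combination (0.343% of the ML351 level, 0.0705% to 1.00%, exact 95% interval for counting error only).

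After Ankrd10, the smallest p-values of the difference between the cytokine effects belonged to Stk38l, a kinase (difference 0.57, edgeR adjusted p = 0.13), and to the iron exporter Slc40a1 (0.49, adjusted p = 0.17). Neither passed the test.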
